A study of Mus musculus with 2 samples.

Results

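The 9 genes described here handle lipid and cholesterol in immune cells: Apoe, Abca1, Abcg1, Scd1, Scd2, Fabp4, Fabp5, Plin2, and Lpl. They were chosen by name, and all 9 were among the 23946 genes counted in at least 1 of the libraries. CD45+ live cells were sorted from collagenase-digested hearts of female WT mice (C57BL6 in the labels, C57BL/6J in the methods) 24 hours after i.p. injection and were profiled by scRNA-Seq on the 10x Genomics Chromium platform with 3' chemistry. The TTS group received isoproterenol (ISO) at 200 mg/kg, a beta-adrenergic agonist that causes a Takotsubo-like cardiomyopathy, and the Control group received PBS as vehicle. The methods give an age of 8 to 16 weeks for the mice of this model. The cells of 3 hearts were pooled in 1 library per group, so the spread between hearts is unknown, no test was made, and all intervals cover counting error only.

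Macrophages take up lipid from dying cells and lipoproteins, store part of it as esters in lipid droplets, and send cholesterol back out to lipoprotein particles. ApoE is the acceptor protein they secrete, and ABCA1 and ABCG1 are the membrane transporters that load cholesterol onto it and onto HDL, under control of the sterol-sensing LXR receptors. SCD1 and SCD2 make monounsaturated fatty acids, FABP4 and FABP5 carry fatty acids in the cytosol, PLIN2 coats lipid droplets, and LPL is the secreted lipase that frees fatty acids from triglyceride-rich lipoproteins.

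Cells were sorted into gates by marker genes, none of which was 1 of the 9 genes. Levels are CPM, the UMIs (molecule counts) of a gene scaled to all UMIs of a gate, with exact Poisson 95% intervals. Macrophages, without any barcode that held 3 or more UMIs of the B cell genes Cd79a, Cd79b, and Ms4a1, numbered 888 in the control and 1913 in the TTS library. Resident macrophages (Timd4, Lyve1, or Folr2) made up 41.9% of them in the control and 9.57% in TTS, and MHC class II high, Ccr2-negative macrophages 38.3% and 1.78%. Ccr2 macrophages with little Arg1 were 118 cells (13.3%) in the control and 1053 cells in TTS. Arg1-high macrophages were 517 cells (27.0%) in TTS and 0 of 888 in the control, which allows a share of up to 0.415%. The remaining 58 control and 126 TTS macrophages passed none of these limits and are called other macrophages. In this leftover gate the summed genes Spp1, Vegfa, Slpi, and Inhba were at 32.6 CPM in the control and 18303 CPM in TTS. They were also higher in TTS in the other subsets that both libraries held. They went from 18.5 to 2112 CPM in resident, from 140 to 7593 CPM in Ccr2, and from 68.5 to 3242 CPM in MHC class II high macrophages. Whether any of these gates held the same kind of cell in both libraries was not tested. Cd163, a marker of resident macrophages that was not used in the gates, was at 686 and 701 CPM in the resident macrophages of the control and TTS libraries, against 73.5 and 18.8 CPM in Ccr2 macrophages. Summed with the resident markers Gas6, Cbr2, F13a1, and Gpr34, it was at 3988 and 3193 CPM in resident macrophages. The same sum was at 697 and 462 CPM in Ccr2 macrophages.

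The libraries differed in depth, with a median of 4790 UMIs per control cell and 8537 per TTS cell, and 15 barcodes that passed the filters occurred in both. Myeloid RNA was also present in the other gates of the TTS library. Lyz2, a myeloid gene, was at 10124 CPM in the 56 TTS B cells against 468 CPM in the 641 control B cells, and Spp1 at 5251 against 1.33 CPM. B cells were therefore also taken with Lyz2 under 20 UMIs per 10000 and with Ccr7 allowed, since the limit on Ccr7 had left out many control B cells; these Lyz2-low B cells numbered 1397 and 40. The control classical monocyte gate had the opposite fault. Only 53 of its 166 cells reached 20 Lyz2 UMIs per 10000, and the B cell gene Ly6d was at 344 CPM in the whole gate and at 11.4 CPM in those 53. Monocyte values below are those of the Lyz2-positive cells, 53 in the control and 1123 in TTS, unless the whole gate is named.

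The genes lie on 6 chromosomes of GRCm38. Fabp5 (chr3:10012548-10016607) and Fabp4 (chr3:10204088-10208576) are neighbors on chromosome 3 with 187480 bases between them, and Scd2 (chr19:44293674-44306864) and Scd1 (chr19:44394455-44407879) on chromosome 19 with 87590 bases between them. Abca1 (chr4:53030787-53159895) and Plin2 (chr4:86648386-86670060) share chromosome 4. Apoe (chr7:19696109-19699188), Lpl (chr8:68880491-68907448), and Abcg1 (chr17:31057675-31117988) stand alone. Both members of each paralog pair have separate rows in the count tables, and UMIs that might align to either were not examined here.

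RefSeq promoters, 250 bases before and 50 bases after the start, were at hand for 3 of the 9 genes. They are shown because Plin2 was higher and Apoe and Abca1 were lower in TTS macrophages. The sequences are on the minus strand of GRCm38.p6, at chr4:86670010-86670309 for Plin2, chr4:53159846-53160145 for Abca1, and chr7:19699139-19699438 for the first of 3 Apoe starts. Capitals mark the motifs searched on both strands, which were ACGTG (the hypoxia response core), CACGTG (the E-box, which holds ACGTG), TGACGTCA (the cAMP response element), AGGTCA (a nuclear receptor site), GGGCGG (the GC box), and TATAAA.
Plin2: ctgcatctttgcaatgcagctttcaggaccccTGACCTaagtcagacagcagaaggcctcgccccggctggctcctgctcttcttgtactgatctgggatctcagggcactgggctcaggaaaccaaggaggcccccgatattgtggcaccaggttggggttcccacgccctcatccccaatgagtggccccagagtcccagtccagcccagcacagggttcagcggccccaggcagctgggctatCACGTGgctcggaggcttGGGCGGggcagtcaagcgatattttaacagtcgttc
Abca1: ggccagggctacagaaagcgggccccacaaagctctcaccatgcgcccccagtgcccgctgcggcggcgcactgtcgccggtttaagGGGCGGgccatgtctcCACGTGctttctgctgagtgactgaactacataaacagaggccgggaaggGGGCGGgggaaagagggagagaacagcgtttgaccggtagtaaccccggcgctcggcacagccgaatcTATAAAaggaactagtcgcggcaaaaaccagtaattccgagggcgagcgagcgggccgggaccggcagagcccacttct
Apoe: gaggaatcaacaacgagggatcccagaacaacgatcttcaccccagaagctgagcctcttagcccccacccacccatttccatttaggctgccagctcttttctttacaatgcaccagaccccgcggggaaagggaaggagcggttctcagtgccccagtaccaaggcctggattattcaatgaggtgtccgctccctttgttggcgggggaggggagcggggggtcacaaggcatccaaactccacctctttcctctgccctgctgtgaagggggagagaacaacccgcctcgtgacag
The Plin2 window held CACGTG at position -4 from the start, GGGCGG at position 14, and AGGTCA on the reverse strand at position -218. In Abca1, CACGTG was at position -147, GGGCGG at positions -163 and -97, and TATAAA at position -29. None of the motifs was in the Apoe window shown, and in the other 2 Apoe windows only TATAAA was found, at positions -96 and, reversed, -100 of 1 of them. Among 32544 promoter windows of this length, 19.7% held ACGTG, 7.17% CACGTG, 1.80% TGACGTCA, 16.2% AGGTCA, 35.9% GGGCGG, and 13.6% TATAAA on either strand. These matches are descriptions and were not tied to the levels below.

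In macrophages as a whole, 4 of the 9 genes were at least 2-fold higher in TTS (Fabp5, Scd2, Plin2, and Lpl) and 3 were at least 2-fold lower (Scd1, Apoe, and Abca1). Of all 12231 genes with at least 20 UMIs in this gate, 10.2% were at least 2-fold higher and 22.2% at least 2-fold lower, and the median log2 ratio was 0.77 for the 9 genes and -0.26 for all genes. With the level in B cells subtracted as free RNA, 0 of the 9 genes were 2-fold higher, but the TTS B cells themselves held Lyz2 at 10124 CPM. With the level in Lyz2-low B cells subtracted, Fabp5, Plin2, and Lpl were 2-fold higher and Apoe was 2-fold lower. These B cells were chosen for little Lyz2, so their level may understate the free myeloid RNA and cannot settle its part. Scd1, Scd2, and Abca1 in macrophages were below that level in 1 or both libraries and gave no ratio. Because the mix of subsets differed so much between the libraries, each subset was compared on its own. Resident macrophages had 4 genes higher (Scd2, Fabp4, Fabp5, and Plin2) and 2 lower (Abca1 and Scd1), against 8.46% and 9.89% of all genes. Ccr2 macrophages had 4 higher (Scd2, Fabp5, Plin2, and Lpl) and 1 lower (Scd1), against 11.9% and 16.6% of all genes. In MHC class II high macrophages, of which TTS held only 34, 4 of the 7 genes with enough UMIs were higher (Abcg1, Fabp4, Plin2, and Lpl) and 1 was lower (Scd1), against 10.5% and 16.9%. Lyz2-positive classical monocytes had 4 higher (Apoe, Abca1, Scd2, and Fabp5) and 1 lower (Scd1), against 10.8% and 16.1%. The whole classical monocyte gate gave 4 higher genes of which only Apoe and Fabp5 were the same (with Fabp4 and Plin2) and 1 lower (Scd1), against 9.99% and 22.9%, and B cells gave 5 and 1, against 11.9% and 24.3%.

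**Figure D1:**
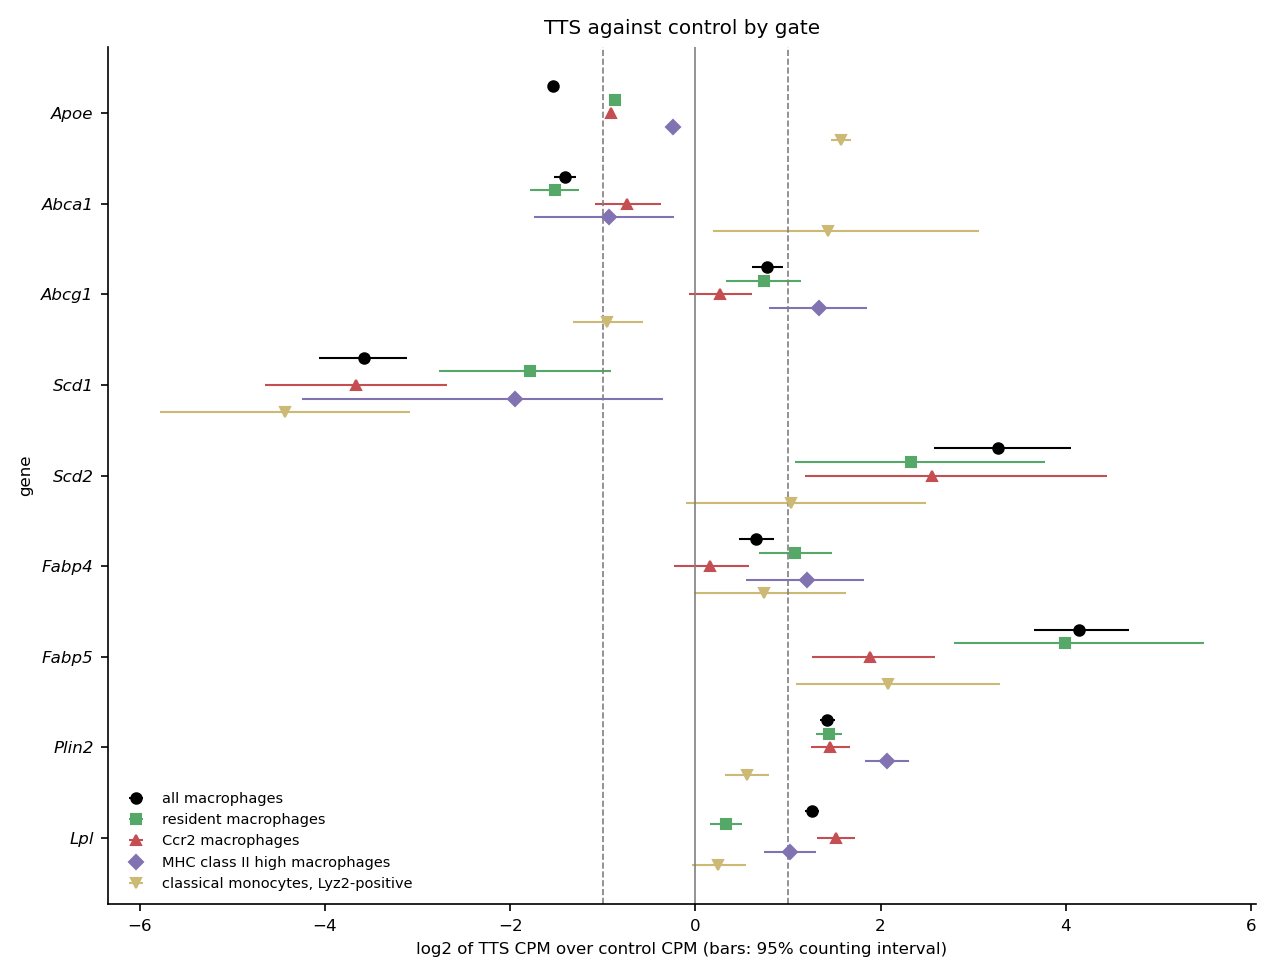
The log2 ratio of TTS CPM over control CPM (x axis) is drawn for each gene (y axis) in macrophages, in 3 of their subsets, and in Lyz2-positive classical monocytes, with 95% counting intervals and dashed lines at 2-fold. Plin2 was near 1.44 in resident and 1.45 in Ccr2 macrophages, Scd1 was below -1 in every gate drawn, and Apoe was below 0 in the macrophage gates and at 1.58 in the monocytes; Scd2 and Fabp5 are left out of MHC class II high macrophages, where they had under 20 UMIs.

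Apoe, the secreted cholesterol acceptor, was lower in TTS macrophages, and the size of the difference depended on the subset. Its level was 14083 CPM in control macrophages (13984 to 14182) and 4850 CPM in TTS (4819 to 4882), which is 2.90-fold lower. Within subsets the difference was smaller. Resident macrophages held 17698 CPM in the control and 9725 CPM in TTS, 1.82-fold lower, and Ccr2 macrophages 8273 and 4397 CPM, 1.88-fold lower. MHC class II high macrophages held 12843 and 10829.6 CPM, 1.19-fold lower. The leftover gate of other macrophages was the exception, at 7922 and 8830 CPM. Unlike cells may be compared in this gate and in the other subsets as well. The TTS subsets were weighted by their control UMIs, which leaves out Arg1-high macrophages and rests partly on the 34 MHC class II high cells. The log2 ratio in macrophages was then -0.61 instead of -1.54. Monocytes went the other way, from 1640 CPM (1523 to 1765) to 4888 CPM (4843 to 4933), 2.98-fold higher. Control Ccr2 macrophages were thus 5.04-fold above control monocytes, whereas in TTS they were at 0.90 times the level of the monocytes. Nonclassical monocytes held 3172 and 3426 CPM, a log2 ratio of 0.11 (-0.00 to 0.23). Lyz2-low B cells also had more Apoe UMIs in TTS, 1502 CPM against 418, and the part of RNA from other cells in the monocyte value was not tested.

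Abca1, the exporter that loads cholesterol onto lipid-poor apolipoproteins, was at 183 CPM in control macrophages (172 to 195) and 68.9 CPM in TTS (65.1 to 72.7), 2.66-fold lower. Resident macrophages held 246 against 85.9 CPM, 2.86-fold lower, and other macrophages 207 against 65.5 CPM. In Ccr2 macrophages it was 92.5 against 55.5 CPM, or 1.66-fold, and in MHC class II high macrophages 138 against 71.9 CPM, or 1.91-fold on 17 TTS UMIs. Control subsets stood apart, with resident 2.66-fold above Ccr2 macrophages, and in TTS this fold was 1.55. Monocytes held 5 control UMIs, at 11.4 CPM, and 30.7 CPM in TTS, a log2 ratio of 1.43 (0.19 to 3.06). The direction turned with the gate: the whole classical monocyte gate held 38.2 and 28.3 CPM of Abca1, a log2 ratio of -0.43 (-0.97 to 0.16), and the Lyz2 limit was chosen after seeing the data.

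Abcg1, the exporter that loads HDL, did not share the pattern of Abca1. Control and TTS macrophages held 61.3 CPM (54.9 to 68.2) and 105 CPM (100.2 to 110), a log2 ratio of 0.77. Ccr2 macrophages held 92.5 and 111 CPM, with a log2 ratio of 0.26 whose interval (-0.07 to 0.61) spans 0. MHC class II high macrophages held 68.5 and 174 CPM, 2.53-fold higher, on 41 TTS UMIs. The monocytes went down, from 148 to 76.5 CPM (log2 ratio -0.95), and so did nonclassical monocytes, from 251 to 134 CPM (-0.90). Among the control macrophage subsets Abcg1 was lowest where Apoe and Abca1 were highest: resident macrophages held 2.37-fold less Abcg1 than Ccr2 macrophages.

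**Figure D2:**
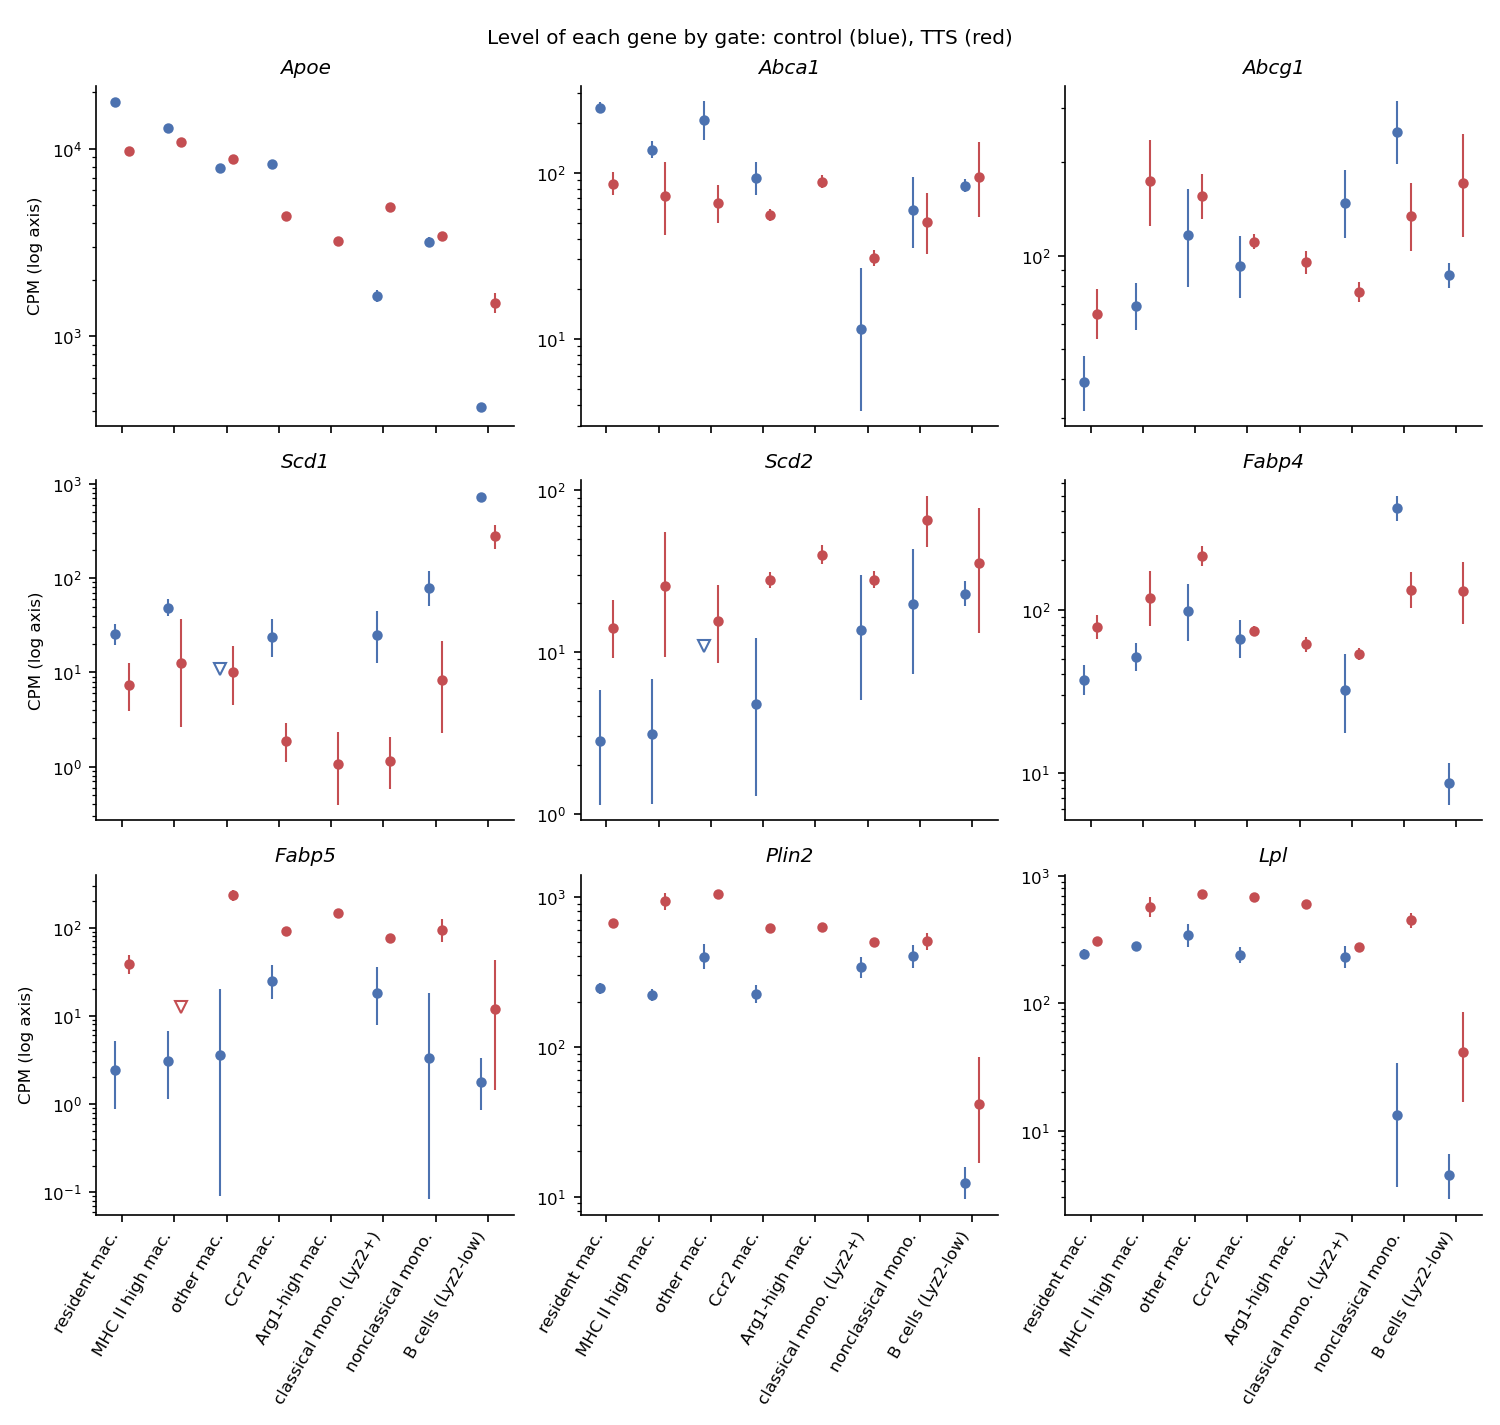
CPM on a log axis is drawn for each of the 9 genes in 8 gates (x axis) of the control (blue) and TTS (red) libraries, with exact Poisson 95% intervals; an open triangle stands at the level of 3 UMIs where a gate held 0 UMIs. Control macrophages had no Arg1-high cells, Plin2 and Lpl were low in Lyz2-low B cells of both libraries, and Scd1 was highest in them.

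Scd1, a desaturase that introduces the double bond of oleate, was highest in B cells in both libraries. Lyz2-low B cells held 726 CPM in the control (704 to 748) and 278 CPM in TTS (204 to 370), 2.61-fold lower, while all B cells held 733 and 163 CPM. In macrophages it was at 32.0 CPM in the control and 2.68 CPM in TTS, from 177 and 50 UMIs. This level moved with the B cell genes: control macrophages with 0, 1, and 2 UMIs of Cd79a, Cd79b, and Ms4a1 held 14.1, 81.0, and 172 CPM of Scd1 and 11.6, 66.2, and 264 CPM of the B cell gene Ly6d. TTS macrophages with 0 such UMIs held 0.81 CPM of Scd1 (0.44 to 1.36) and 0.69 CPM of Ly6d. The log2 ratio was -3.58 with all macrophages and -4.12 with those at 0 B cell UMIs, and the part of B cell RNA in it was not tested. Monocytes held 25.1 and 1.16 CPM, from 11 UMIs in each library. The whole control monocyte gate, with its Ly6d at 344 CPM, held 285 CPM of Scd1.

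Scd2, the paralog of Scd1, was low in control macrophages, with 17 UMIs or 3.07 CPM (1.79 to 4.92), and at 29.6 CPM in TTS (27.2 to 32.2), 9.63-fold higher. The subsets and monocytes showed the same direction: 2.82 against 14.1 CPM in resident macrophages, 4.74 against 28.0 CPM in Ccr2 macrophages, and 13.7 against 28.0 CPM in monocytes, where the interval of the log2 ratio (-0.11 to 2.49) spans 0. Arg1-high macrophages held 39.9 CPM, 1.43-fold above TTS Ccr2 macrophages. In the control, Scd2 was higher outside the macrophages, at 92.3 CPM in stromal cells, 42.3 CPM in NK cells, and 22.2 CPM in B cells. In TTS these gates held 42.4, 31.6, and 16.8 CPM, with log2 ratio intervals that span 0. Other gates were higher in TTS, with DCs at 21.0 and 45.5 CPM and ILC2s at 9.92 and 24.7 CPM. Nonclassical monocytes held 19.8 and 65.1 CPM, and neutrophils 0 UMIs and 27.0 CPM. T cells held 22.5 and 46.3 CPM, with an interval that spans 0. The part of RNA from other cells in these values was not tested. Scd1 and Scd2 thus differed in opposite directions between the libraries in macrophages. In monocytes Scd1 was lower in TTS, and the Scd2 difference was not beyond counting error.

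Fabp5, the fatty acid carrier also found in skin and many activated cells, showed the largest fold of the 9 genes in macrophages. It went from 34 UMIs or 6.15 CPM (4.26 to 8.59) in the control to 108.6 CPM (104 to 113) in TTS, 17.7-fold higher. In resident macrophages the levels were 2.41 and 38.4 CPM, 15.9-fold higher on 6 control UMIs, and in Ccr2 macrophages 24.9 and 92.0 CPM, 3.70-fold higher. Monocytes held 18.2 and 76.9 CPM, 4.22-fold higher. MHC class II high macrophages held too few UMIs to compare, with 6 UMIs in 340 control cells and 0 UMIs in 34 TTS cells. The exact upper limit in TTS was 15.6 CPM, and the counting interval allows up to 6.92-fold higher in TTS. Fabp5 was also higher in TTS outside the macrophage and monocyte gates: B cells held 2.67 and 124 CPM, T cells 2.81 and 67.1 CPM, and DCs, themselves myeloid, 9.76 and 92.7 CPM. Lyz2 was also higher in these TTS gates, at 10124 CPM in B cells, 9464 CPM in T cells, and 4400 CPM in DCs. TTS resident macrophages, at 38.4 CPM, were below all 3 of these TTS gates. The part of RNA from other cells in the Fabp5 of these gates, and in that of the macrophage and monocyte gates, was not tested. Lyz2-low B cells held 10 control and 2 TTS UMIs. With the control make-up of subsets the log2 ratio in macrophages was 2.80 instead of 4.14. This weighting leaves out Arg1-high macrophages and gives weight to the MHC class II high cells, with 0 UMIs in TTS. A processed pseudogene of Fabp5 has its own row in the files, and how reads that match both were assigned is uncertain.

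Fabp4, the carrier best known from adipocytes, macrophages, and capillary endothelium, was within 2-fold between the libraries in macrophages, at 49.5 CPM (43.8 to 55.8) and 78.0 CPM (74.1 to 82.1). The log2 ratio was 1.08 in resident macrophages, 1.20 in MHC class II high macrophages, and 0.16 (-0.23 to 0.58) in Ccr2 macrophages. The first of these was -1.81 with the level in B cells subtracted, and the second was -0.69 with stromal barcodes kept. Its highest levels by far were in the few stromal cells of the sort, 5821 CPM in 26 control cells and 11282 CPM in 21 TTS cells. The adipocyte genes Adipoq and Cfd had 0 UMIs in macrophages of both libraries, and Plin1 and Cidec had no row in either table. Nonclassical monocytes held 419 CPM in the control (349 to 499) and 132 CPM in TTS (102 to 169), 3.17-fold lower, and the summed endothelial genes Pecam1, Cdh5, Egfl7, and Flt1 moved with it, at 175 and 37.8 CPM with 1 of the 4 genes at 0 in each library. Their part in the Fabp4 difference was not tested.

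Plin2, the lipid droplet coat protein, was higher in TTS in every macrophage subset that both libraries held. Its level in macrophages was 242 CPM in the control (229 to 255) and 649 CPM in TTS (637 to 660), 2.68-fold higher. The folds were close to each other in resident macrophages (245 against 668 CPM, 2.72-fold), Ccr2 macrophages (225 against 617 CPM, 2.74-fold), and other macrophages (399 against 1041 CPM, 2.61-fold). MHC class II high macrophages showed 222 against 935 CPM, 4.21-fold. The fold was smaller in monocytes, whose control cells already held 339 CPM (287 to 399) against 498 CPM in TTS, 1.47-fold, and in nonclassical monocytes, with 403 and 504 CPM, a log2 ratio of 0.32 (0.00 to 0.65). Gates of lymphocytes differed as well: B cells held 24.4 and 402 CPM of Plin2, T cells 33.7 and 416 CPM, and NK cells 23.7 and 414 CPM, with Lyz2 at 10124, 9464, and 9575 CPM in these TTS gates, and the part of myeloid RNA in them was not tested. Lyz2-low B cells held 12.4 and 41.4 CPM of Plin2. The median resident macrophage held 1.38 Plin2 UMIs per 10000 in the control and 5.80 in TTS.

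Lpl, the lipoprotein lipase, was at 261 CPM in control macrophages (248 to 275) and 626 CPM in TTS (614 to 637), 2.40-fold higher. With the TTS subsets weighted as in the control, which leaves out Arg1-high macrophages, the log2 ratio was 0.87 instead of 1.26, under 2-fold. Ccr2 macrophages held 241 and 687 CPM, 2.86-fold higher, other macrophages 341 and 716 CPM, and MHC class II high macrophages 280.4 and 571 CPM, 2.04-fold higher, while resident macrophages held 244 and 307 CPM, a log2 ratio of 0.33 (0.16 to 0.50). In the control these levels did not stand apart for resident and Ccr2 macrophages, and in TTS resident macrophages held 2.24-fold less than Ccr2 macrophages. Monocytes held 232 and 276 CPM, a log2 ratio of 0.25 (-0.04 to 0.55), so that TTS Ccr2 macrophages were 2.49-fold above TTS monocytes. Nonclassical monocytes went from 4 UMIs, 13.2 CPM, to 447 CPM, a log2 ratio of 5.08 (3.71 to 6.97). NK cells went from 2.15 to 523 CPM and neutrophils from 13.9 to 491 CPM. The part of RNA from other cells in the values of these 3 gates was not tested. In the T cell gate Lpl was at 2.81 and 608 CPM and Lyz2, a myeloid gene, at 385 and 9464 CPM, and the part of myeloid RNA in these values was not tested. The median cell held 0.00 Lpl UMIs per 10000 in resident macrophages of both libraries and 2.24 in TTS Ccr2 macrophages, whose upper quartile was 8.70.

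Arg1-high macrophages, which only the TTS library held, differed modestly from the TTS Ccr2 macrophages. Abca1 was 1.59-fold higher (88.0 against 55.5 CPM) and Fabp5 1.58-fold higher (146 against 92.0 CPM). Apoe was 1.36-fold lower (3236 against 4397 CPM). Plin2 did not differ beyond counting error, at 625 and 617 CPM, with a log2 ratio of 0.02 (-0.04 to 0.08). Lpl was 1.14-fold lower, at 602 CPM.

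Levels were then followed along marker genes within each library. The complement genes C1qa, C1qb, and C1qc served as the scale over macrophages and monocytes. The lowest bin held 59 control and 1822 TTS cells, and its mix of macrophages and monocytes was not compared between the libraries. From under 3 to at least 100 C1q UMIs per 10000, Apoe went from 1878 to 16683 CPM in the control and from 4160 to 11923 CPM in TTS. The TTS bins below 30 C1q UMIs lay between 3986 and 4455 CPM of Apoe, and the bin from 30 to 100 was at 5575 CPM. Abca1 in the control went from 11.03 CPM (3.58 to 25.7, on 5 UMIs) in the lowest to 204 CPM in the highest C1q bin. Between 10 and 30 C1q UMIs it was at 114 CPM in the control. In TTS it went from 45.9 to 78.0 CPM. Abcg1 ran in the opposite direction in the control, from 207 to 45.6 CPM. Plin2 declined along C1q in the control, from 430 to 207 CPM, whereas in TTS its bins lay between 561 and 668 CPM. Along Spp1, the osteopontin gene, TTS macrophages went from under 10 to at least 300 UMIs per 10000 with Fabp5 at 59.4 to 369 CPM, Lpl at 349 to 1161 CPM, and Plin2 at 599 to 974 CPM. Apoe was at 6610 CPM in the lowest Spp1 bin and between 3681 and 3905 CPM in the others. In the control, 885 of 888 macrophages were in the lowest bin. Resident macrophages of the TTS library also held Spp1, at 1878 CPM against 4.42 CPM in the control, and its part in their values was not tested.

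**Figure D3:**
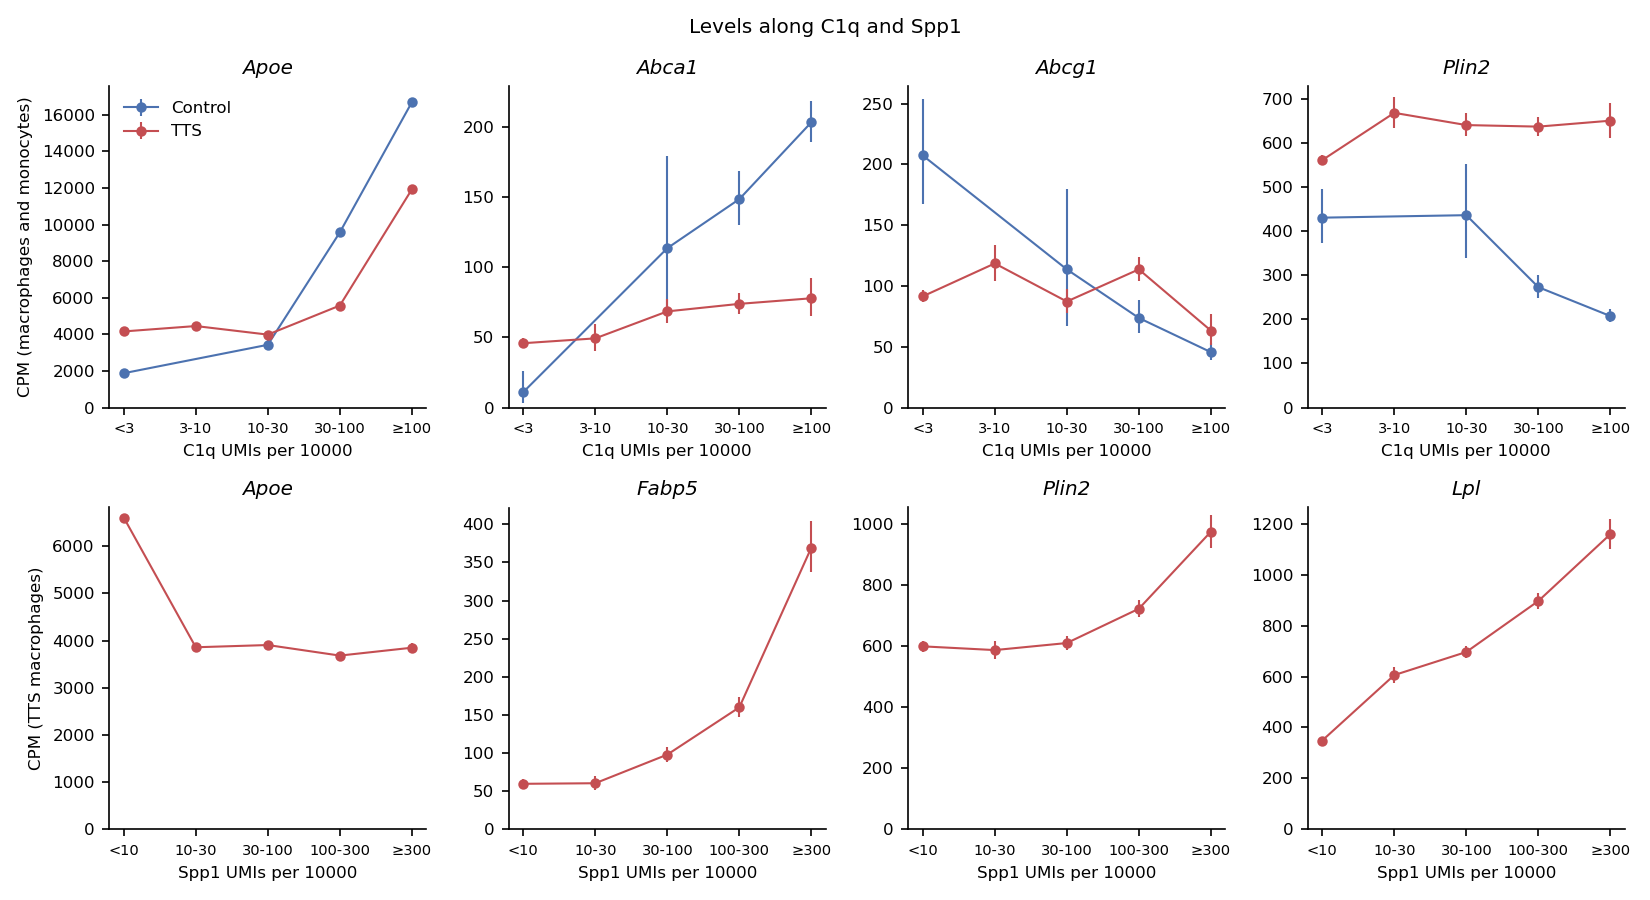
The upper row gives CPM of 4 genes against C1q UMIs per 10000 in macrophages and Lyz2-positive monocytes of the control (blue) and TTS (red) libraries, and the lower row gives CPM against Spp1 UMIs per 10000 in TTS macrophages, with exact Poisson 95% intervals; bins with fewer than 20 cells are left out, which is why the control lacks the bin from 3 to 10 C1q UMIs. Apoe was highest in the highest C1q bin of both libraries, and Fabp5 and Lpl were highest in the highest Spp1 bin, at 369 and 1161 CPM.

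Shares of cells with a UMI were compared after each cell was thinned to 1000 UMIs, with exact Clopper-Pearson 95% intervals. A Plin2 UMI was found in 15.0% of control macrophages (12.7 to 17.5) and 43.2% of TTS macrophages (40.9 to 45.4), against 0.94% and 23.2% of B cells. Lpl was found in 17.4% and 30.4% of macrophages, against 0.31% and 12.5% of B cells, and Fabp5 in 0.45% and 6.80%, against 0.31% and 8.93%. Abca1 was found in 16.0% and 5.28% of macrophages, against 10.3% and 5.36% of B cells, so that its TTS share was no higher than that of B cells, and Apoe in 95.4% and 81.1%, against 27.8% and 71.4%. In TTS Lyz2-low B cells without the Ccr7 allowance, 27 cells, Plin2, Lpl, and Fabp5 were each found in 3.70%. The median depths were 5856 and 8476 UMIs in macrophages and 3185 and 6516 UMIs in B cells. For Abcg1 (4.06% and 8.57%) and Scd2 (0.23% and 3.08%), the macrophage shares were below the B cell shares (9.98% and 14.3% for Abcg1, 2.65% and 5.36% for Scd2). Control Lyz2-low B cells held 86.4 CPM of Abcg1 and 22.9 CPM of Scd2 and may hold these genes themselves. The macrophage shares of both genes could thus not be set against a background. Scd1 was found in 2.82% and 0.26% of macrophages, and B cells, where it was highest, give no background for it. The Fabp5 share of TTS macrophages was below that of all TTS B cells and, at 1 of 27 cells in the Lyz2-low ones, could not be set against a background. Fabp4 was found in 5.42% and 6.74% of macrophages, against 0.47% and 5.36% of B cells. Without thinning, the macrophage shares in control and TTS were 52.9% and 93.1% for Plin2, 46.2% and 63.6% for Lpl, 49.8% and 34.7% for Abca1, 98.4% and 95.7% for Apoe, 2.59% and 29.6% for Fabp5, and 18.1% and 31.9% for Fabp4. The shares of the 3 remaining genes without thinning were 19.6% and 45.7% for Abcg1, 9.57% and 1.67% for Scd1, and 1.91% and 19.2% for Scd2.

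**Figure D4:**
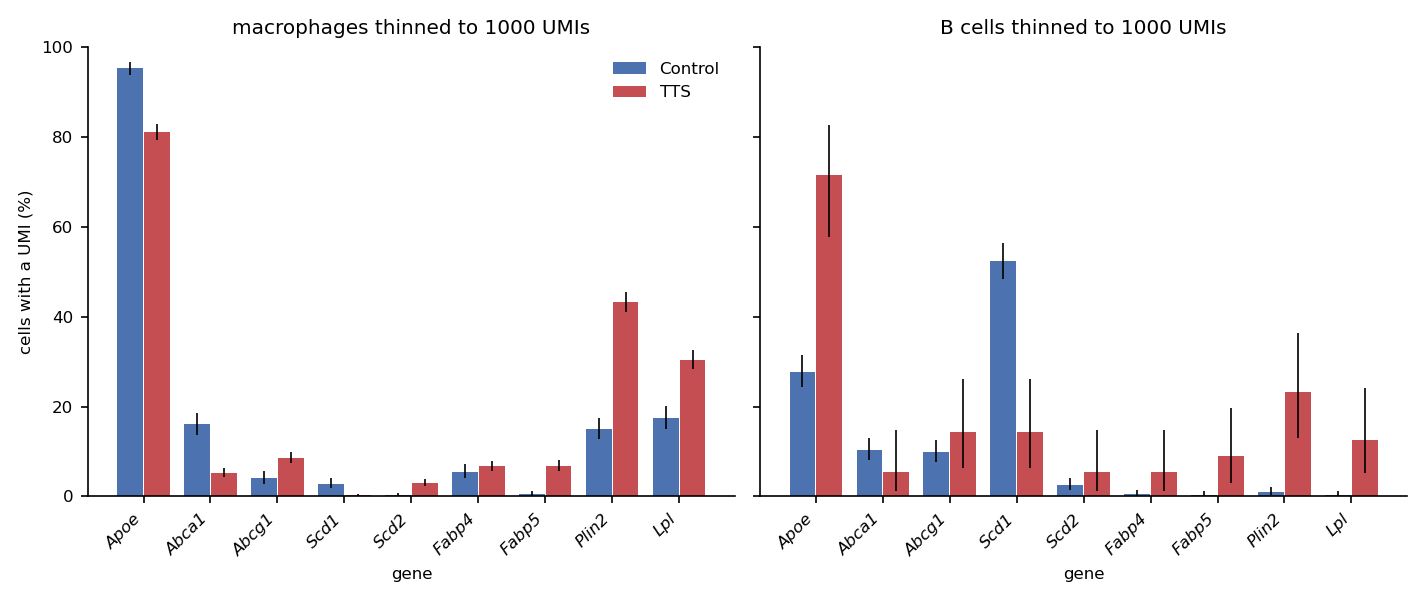
The percent of cells with at least 1 UMI of each gene after thinning to 1000 UMIs is drawn for macrophages (left) and B cells (right) of the control (blue) and TTS (red) libraries, with exact Clopper-Pearson 95% intervals. Plin2 and Lpl were found in more TTS than control macrophages, and Apoe was found in 71.4% of the 56 TTS B cells, the gate that also held Lyz2.

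A set of 78 other lipid genes in 7 lists was measured in the same gates. In macrophages, 4 of the 9 measured genes for lipid droplets and lipolysis were at least 2-fold higher in TTS and 0 were lower, beside 10.2% higher and 22.2% lower over all genes of this gate. These were Hilpda, an inhibitor of the lipase ATGL, from 38.9 to 530 CPM (13.6-fold), G0s2, another inhibitor of ATGL, from 15.2 to 127 CPM (8.38-fold), Abhd5, its coactivator, and Dgat2, a triglyceride synthase. ATGL itself, encoded by Pnpla2, was within 2-fold, and the median log2 ratio of the list was 0.03. Hilpda and G0s2 were also higher in resident macrophages, from 21.7 to 353 CPM and from 12.5 to 213 CPM. Of the 4 measured lipoprotein receptors, the scavenger receptors Olr1 (1.08 to 65.0 CPM, from 6 control UMIs) and Msr1 (111 to 485 CPM, 4.35-fold) were higher, and Lrp1 and Trem2 were within 2-fold. Of 14 measured genes for fatty acid uptake, activation, and PPAR, 0 were higher and 5 were lower. The median log2 ratio of this list was -0.23, near the -0.26 of all genes. Cd36, a scavenger receptor that takes up fatty acids, was at 318 and 97.7 CPM in macrophages, 3.26-fold lower. In resident macrophages Cd36 was at 382 and 354 CPM, a log2 ratio of -0.11, and in Ccr2 macrophages at 263 and 64.6 CPM. The others were Acsl3 and Acsl1, which activate fatty acids, Cpt1a, which admits them to mitochondria, and the receptor Rxra, with log2 ratios between -1.30 and -1.10. Pparg was within 2-fold, at 17.0 and 14.0 CPM, as were Angptl4 and Gpihbp1, partners of LPL, with at most 3.00 CPM.

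Of 16 genes for sterol synthesis and uptake, Fdps, the farnesyl diphosphate synthase, was higher (15.7 to 71.8 CPM, 4.56-fold), Dhcr7, the last enzyme of cholesterol synthesis, was lower (11.2 to 5.36 CPM), and 14 were within 2-fold, including Srebf2, the sterol-responsive regulator of this pathway. The median log2 ratio of this list was 0.14. Among 11 measured genes for cholesterol export and storage, 3 were higher and 1 was lower. Apoc2, the cofactor of LPL, whose gene lies in the same cluster as Apoe, went from 26.4 to 141 CPM (5.34-fold) while Apoe was lower. Apoc1, also of that cluster, had 5 control UMIs and went from 0.90 to 4.40 CPM. Nr1h3, which encodes LXRalpha, was at 7.77 and 17.8 CPM, 2.29-fold higher, and Mylip, an LXR target that encodes a ubiquitin ligase, was 2.74-fold lower. Nr1h2 was within 2-fold, and Soat1, which esterifies cholesterol, was at 65.8 and 124 CPM, 1.89-fold higher. Of 9 measured genes for fatty acid synthesis, 8 were within 2-fold and 1 was lower, the desaturase Fads1, at 46.1 and 9.38 CPM. Srebf1, the regulator of this pathway, was at 15.0 and 24.0 CPM. The other fatty acid binding proteins were near the limit of detection, with Fabp7 at 0.72 and 4.56 CPM and Fabp3 at 2.53 and 0.75 CPM.

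**Figure D5:**
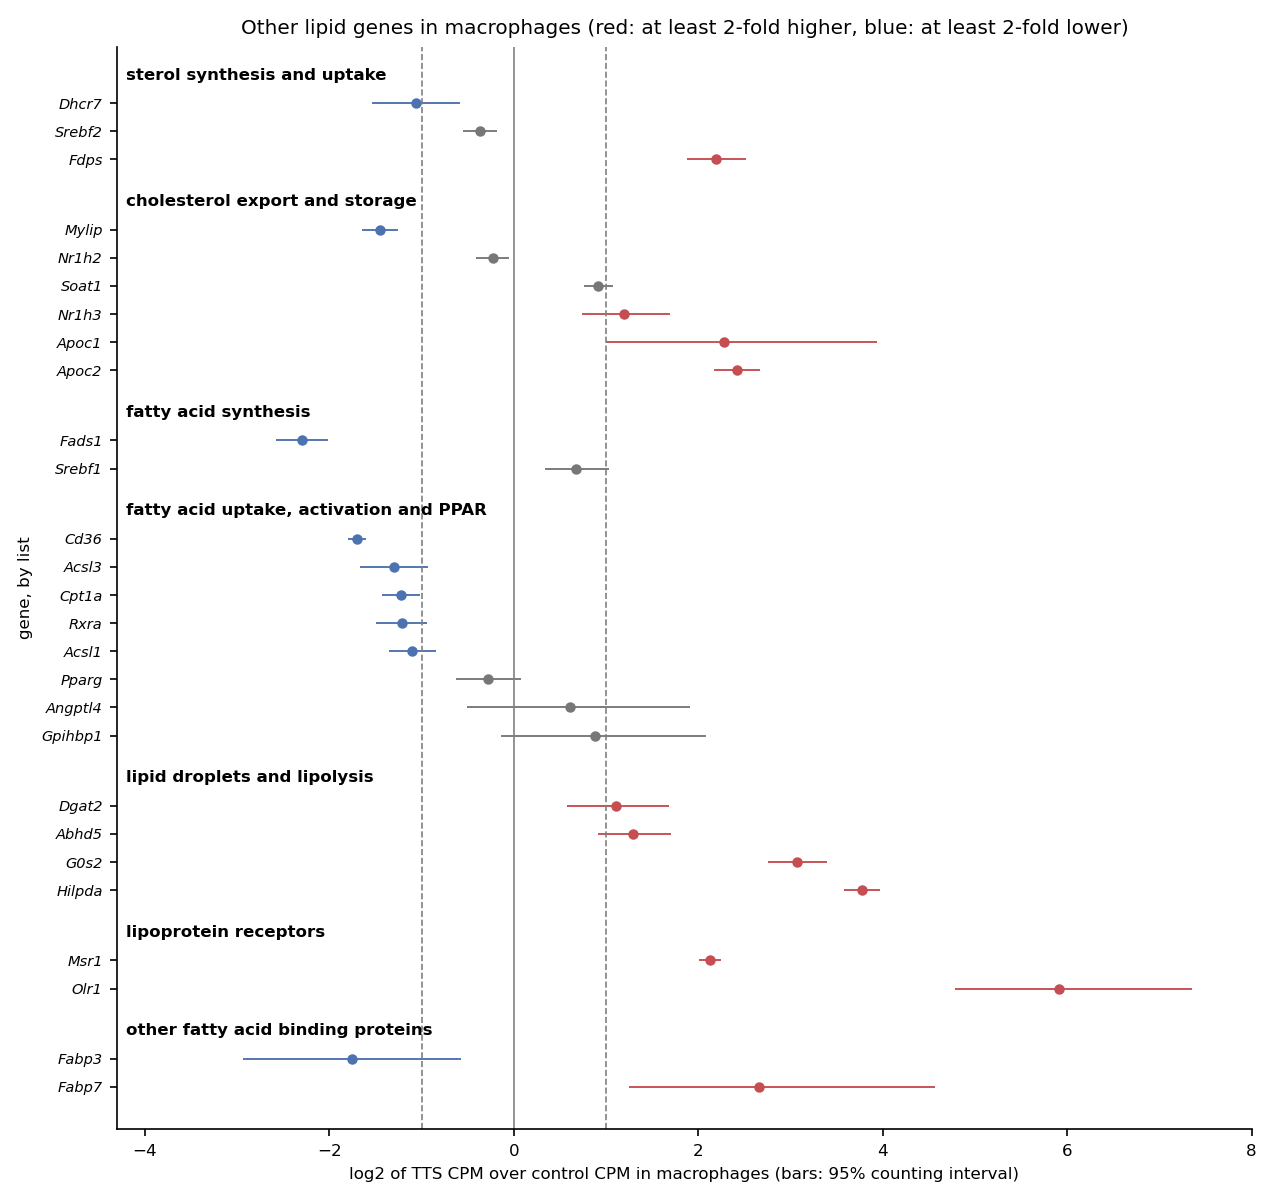
The log2 ratio of TTS CPM over control CPM in macrophages is drawn for the genes of the 7 lists that were past 2-fold or are direct partners of the 9 genes and had at least 20 UMIs, with 95% counting intervals and dashed lines at 2-fold. Olr1, Hilpda, and G0s2 lie farthest to the right, at 5.91, 3.77, and 3.07, and Fads1, at -2.30, farthest to the left.

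In Lyz2-positive classical monocytes, the same lists gave 2 higher and 0 lower among 8 genes for droplets and lipolysis (Hilpda at 25.1 and 443 CPM, G0s2 at 22.8 and 94.0 CPM), beside 10.8% higher and 16.1% lower over all genes of this gate. Of 4 lipoprotein receptors, 3 were higher: Msr1 (123 to 452 CPM), Olr1 (25.1 to 53.9 CPM), and Trem2 (75.2 to 152 CPM). Of 14 genes for fatty acid uptake, 0 were higher and 2 were lower, Rxra and Cpt1a. Of 11 genes for cholesterol export and storage, 0 were higher and 2 were lower, Lipa and Scarb1. Fatty acid synthesis had 0 higher and 1 lower (Acaca) among 9 genes. Fabp7 was at 9.94 CPM in TTS and 0 UMIs in the control, at least 1.45-fold higher against 3 control UMIs. The whole monocyte gate, with its B cell RNA, gave Fasn, Acaca, Cpt1a, and Mylip as lower and Fdps, Apoc1, Elovl6, Pparg, Hilpda, G0s2, Msr1, Olr1, Trem2, and Fabp7 as higher. Fabp7 was at least 2.41-fold higher there, against 3 UMIs in the control gate, which held 0.

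The genes ordered differently across the gates. Apoe was highest in resident macrophages in the control and in MHC class II high macrophages in TTS. Abca1 was highest in control resident macrophages, where its interval overlapped that of other macrophages at 207 CPM, and in TTS the 4 highest gates (Arg1-high, resident, MHC class II high, and other macrophages, from 88.0 to 65.5 CPM) had overlapping intervals. Plin2 was highest in control nonclassical monocytes and other macrophages (403 and 399 CPM, overlapping) and in TTS other and MHC class II high macrophages (1041 and 935 CPM, overlapping). Abcg1 was highest in control nonclassical monocytes, at 251 CPM, with an interval that overlapped that of neutrophils (188 CPM). Over the 27 gate-by-library groups, 13 of the control and 14 of the TTS library, the genes whose log2(CPM + 10) was most like that of a gene of interest among 11226 genes differed from gene to gene. They were Lamp1 and Rin2 for Apoe (Pearson r of 0.93 and 0.92), Mfsd11 and Blvrb for Abca1 (0.82 and 0.82), Sephs2 and Pafah1b1 for Abcg1 (0.78 and 0.75), and Ebf1 and Gm19980 for Scd1 (0.95 and 0.93). For the rest they were Pam16 and Ybx3 for Scd2 (0.83 and 0.82), Sparc and Egfl7 for Fabp4 (0.91 and 0.90), Gm6166 and Igfbp6 for Fabp5 (0.90 and 0.89), Rab20 and Clec4n for Plin2 (0.93 and 0.93), and Anxa3 and Cxcl1 for Lpl (0.96 and 0.93). Groups of a library share that library, its depth, and its free RNA, so these values are descriptions. With a pseudocount of 1 CPM the first gene was another for Abca1 (Tank), Abcg1 (Pafah1b1), and Scd2 (Wdr75).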

How the data were processed

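Mouse cardiac CD45+ cells of a Control and a TTS library were analysed, with 1 library per group and 3 hearts pooled in each. Per the labels and the methods, the authors used UMI-tools 1.0.0, STAR 2.7.3a, the mm10 genome, and featureCounts 1.6.4, and deposited UMI counts per gene and barcode without normalization. A barcode was kept if over 500 but not as many as 6000 genes were detected and the mitochondrial share was below 25%, 5641 of 5927 in the control and 5437 of 5514 in TTS, with 41651434 and 55443553 UMIs and medians of 4790 and 8537 per cell. Gm26924 took 5.08% and 1.04% of these UMIs.

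Gates were set from marker UMIs per 10000 and from marks of B cells, T cells, NK cells, ILC2s, neutrophils, DCs, and stromal cells, and a barcode with a mark of another lineage was left out of a gate; 2797 control and 1128 TTS cells were in no gate. Doublets were otherwise left in. Scrublet, run with scanpy 1.11.5 as an alternative, marked 13 control and 0 TTS cells by its own threshold and so did not work, and the 5% highest scores were then left out (283 and 272 cells). UMIs were summed per gate and library. Log2 ratios of CPM have exact conditional binomial 95% intervals, CPM have exact Poisson intervals, and shares have exact Clopper-Pearson intervals; UMIs are molecule counts, and intervals cover counting error only. Genes with at least 20 UMIs in both libraries together were compared, at least 2-fold was the fixed size, and a count of 0 was set to 3 UMIs, so that such a fold is a bound. The 9 genes were named in every gate; other lipid genes were named where past 2-fold in macrophages or classical monocytes or where direct partners of a gene, except for some results that are not reported here, and likeness was measured by the 2 highest Pearson r. The ratio step was tested on simulated counts without RNA from other cells, and thinning was checked for the depth reached. The gates, the subtraction, and the weighting of subsets were not tested in this way. The genes, lists, and gates were chosen with earlier results of these data known. Positions are from GENCODE M21, and promoters from RefSeq. Alternatives, 13 planned and 7 chosen after seeing the data, changed gates, marks, scaling, and subtraction. Python 3.11.15, numpy 2.4.6, scipy 1.17.1, pandas 2.3.3, and matplotlib 3.10.9 were used. The treatment label is the same for both samples, so the control was identified by its title and its vehicle by the methods.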

Additional observations from a re-analysis of the deposited data

Results flagged for a closer look

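Apoe differed in opposite directions between gates, and these differences were not tested, since each group has 1 library. It was lower in TTS macrophages (log2 ratio -1.54) and higher in the whole TTS classical monocyte gate (2.08), a difference of -3.62. Only 53 of the 166 control cells of that gate were Lyz2-positive, and in the Lyz2-positive monocytes the log2 ratio was 1.58. For macrophages against B cells (2.83) the difference was -4.37. The TTS B cells also held Lyz2 at 10124 CPM and the control B cells at 468 CPM.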

How the results depend on the processing

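Of 744 log2 ratios under the alternatives, 722 had the sign reported and 22 the other sign. Called values reversed in 3 cases: Fabp4 to -1.81 in resident macrophages and Plin2 to -1.33 in classical monocytes with the B cell level subtracted, and Fabp4 to -0.69 in MHC class II high macrophages with stromal barcodes kept. The following counts of the 9 genes moved by over 1.5 times. With the B cell level subtracted, 0 were higher in macrophages, resident macrophages, and classical monocytes, and 1 in Ccr2 and in MHC class II high macrophages, and 2 were lower in Ccr2 macrophages. This level holds myeloid RNA in TTS, and a gene below it gives no ratio. With the Lyz2-low B cell level, from cells chosen for little Lyz2, 1 was lower in macrophages and 0 in classical monocytes. With the B cell mark at 1 UMI, 1 was lower in resident and 0 in Ccr2 macrophages; Scd1, at -3.29 and -4.22, then had under 20 UMIs. With other marks at 1 UMI, 1 was lower in resident and 0 in MHC class II high macrophages. With the mean of single cells, 2 were lower in Ccr2 macrophages, MHC class II high macrophages, and classical monocytes. With Gm26924 and mitochondrial UMIs left out, 2 were lower in Ccr2 and in MHC class II high macrophages. Median of ratios scaling, which moved all log2 ratios by 0.17 in macrophages, -0.16 in resident macrophages, 0.17 in classical monocytes, -0.33 in B cells, and -0.37 in MHC class II high macrophages, left 1 higher and 2 lower in the last. In that gate stromal barcodes gave 2 higher, halved limits 2 lower, and thinned gates 3 lower. Doubled limits gave 2 higher in classical monocytes, halved limits 2 lower in B cells, and Lyz2 under 20 per 10000 gave 2 higher in B cells. The cause was not tested. No paired analysis was possible because each group has 1 library.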
